A study of Mus musculus with 20 samples.

Results

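Cytosolic ribosomal protein genes were followed in mouse whole trachea through every array probe whose gene symbol begins with Rpl and a digit or the letter p, or with Rps and a digit or the letter a. The Rps6k kinases (21 probes of 10 genes) and the symbols that end in l (3 probes of 3 like genes) were left out. This name rule kept 134 of the 41174 probes, for 79 of the 27962 gene names in the array files, of which 47 have an Rpl symbol and 32 an Rps symbol. It also kept the paralogs Rpl22l1 and Rpl7l1 and the gene Rps19bp1, whose product binds a ribosomal protein and is not a ribosomal subunit. The 20 whole-trachea arrays fell in 4 groups of 5, uninjured wild-type (WT-control), uninjured Myd88KO (KO-control), injured wild-type (WT-injury) and injured Myd88KO (KO-injury). Mice were C57/Bl6 and labelled as 4 months old. Injury was made with 2% polidocanol, a detergent given into the trachea that strips its epithelium, and the organ was collected 3 days later. Myd88 is an adaptor of Toll-like and interleukin-1 receptors, and its loss in KO mice was present in every cell. KO mice were backcrossed to C57/Bl6 and bred as a colony apart from the wild-type colony, so genotype and colony cannot be told apart.

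Ribosomal proteins and ribosomal RNA together build the small subunit, which reads the mRNA, and the large subunit, which joins amino acids. The mRNAs of most ribosomal proteins start with a short run of pyrimidines, the terminal oligopyrimidine, through which the kinase complex mTORC1 and the RNA-binding protein Larp1 control their translation. Cells that divide or grow make more ribosomes, and tracheal basal and secretory cells divide after the epithelium has been shed.

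The first 30 transcribed bases are shown for the 5 genes that passed the test after injury and for Rps26, which came nearest to the threshold without passing. They were read on the strand of the gene from RefSeq gene models of GRCm38.p6. Capitals mark CTTTC wherever it stands in the 30 bases, which is not the same as a pyrimidine run at the first base. Rps24 and Rpl10a have 2 annotated starts each.

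Rpsa chr9:120127766-120127795, plus strand: acgtcatttccggccgcccgtcCTTTCgcg

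Rps24 chr14:24490678-24490707, plus strand: ttccttgcgcgttgatatgattggtcggca

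Rps24 chr14:24490753-24490782, plus strand: atcatggtgagtctcctcgggctctcagca

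Rpl14 chr9:120571517-120571546, plus strand: cttctcgctgagcgccgccaacatggtgag

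Rpl27a chr7:109519195-109519224, plus strand: tcccttttccCTTTCtgccaccgccatggt

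Rpl10a chr17:28328471-28328500, plus strand: cggccgcaaactgcagcgcctctccggctt

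Rpl10a chr17:28328565-28328594, plus strand: atgcgcaaagcgctctgccttCTTTCcggt

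Rps26 chr10:128626477-128626506, minus strand: ggatcctCTTTCgagtcttggctccaagat

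Of the 79 genes, 58 had 67 annotated starts in the RefSeq promoter table. CTTTC stood in the first 30 bases at 16 of these 67 starts (23.9%) and at 1134 of all 32851 starts (3.45%). The same letters on the other strand, GAAAG, stood there at 3 of the 67 starts (4.48%) and at 3.95% of all starts. CTTTC stood in the windows of Rpsa, Rpl27a, Rps26 and the second Rpl10a start, and not in those of Rps24 and Rpl14. The marked windows of Rpsa, Rps26 and the second Rpl10a start begin with a purine. The unmarked windows of Rpl14 and the first Rps24 start begin with pyrimidines, so CTTTC does not show which genes have the run. These are letters at annotated starts, which need not be the starts used in the trachea.

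Each array held 45018 spots, 1639 of them control spots, and 57.5% to 67.8% of the others were well above background. The number of arrays limits the precision. Arrays of 1 group correlated at 0.925 to 0.990. The 4 arrays of a replicate number lay on 1 slide, and slides 1 to 3 were scanned on one day and slides 4 and 5 on another, so every slide and scan day held all 4 groups. The array KO-injury 5 had the lowest share of spots above background and the most spots marked as outliers (192), so the ribosomal protein counts of each comparison that uses injured Myd88KO tracheas are also given without it. The Myd88 probe had a mean level of 2.08 ± 0.14 in WT-control, 1.86 ± 0.17 in KO-control, 2.65 ± 0.18 in WT-injury and 1.89 ± 0.26 in KO-injury (log2, SD, n = 5). Whether the probe falls inside the deletion is not given in the sources used here, so its level does not check the genotype labels. Markers of smooth muscle and cartilage were measured in every group, as were markers of skeletal muscle and fat, and of the thyroid marker list 3 of 6 genes passed the filter below.

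A probe's level is its log2 intensity minus that of the array's 75th percentile, so a difference of 1 is a 2-fold change of signal. Levels describe the signal of a probe and not the abundance of an mRNA. A probe was tested if 10 or more of the 20 arrays, whichever their group, showed it well above background. Of the 134 ribosomal protein probes, 128 passed, and all 79 genes kept at least 1 probe. Outlier spots left 15 of the 128 with a value missing on 1 or more arrays. The other 6 were an additional probe each for Rpl35a, Rps19 and Rps2, which were well above background on no array, for Rps6 (2 arrays), for Rpl22l1 (3 arrays) and for Rpl36a (8 arrays). When the 26063 tested probes were split into 4 equal classes by mean level, 110 of the 128 fell in the highest class. All comparisons below used limma with Benjamini-Hochberg adjustment over the 26063 tested probes, and a probe was called at an adjusted p under 0.01.

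The median level over the 128 probes was 6.0, 5.67, 5.65, 5.42 and 5.80 on the WT-control arrays 1 to 5. It was 6.08, 6.06, 6.0, 6.20 and 6.0 on the WT-injury arrays. The highest uninjured and the lowest injured array were both at 6.0, and the group means were 5.71 ± 0.21 and 6.07 ± 0.08 (SD, n = 5). In Myd88KO tracheas the median was 6.01, 5.57, 5.76, 5.38 and 6.04 on the uninjured arrays and 6.14, 6.13, 5.49, 5.86 and 5.89 on the injured arrays. These 2 groups overlapped widely, with means of 5.75 ± 0.28 and 5.90 ± 0.26. The ribosomal protein probes held 7.58% to 9.39% of the summed intensity of the uninjured wild-type arrays and 9.74% to 10.3% of that of the injured ones, without overlap. In Myd88KO they held 7.42% to 9.16% without injury and 8.48% to 10.3% with it.

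**Figure D1:**
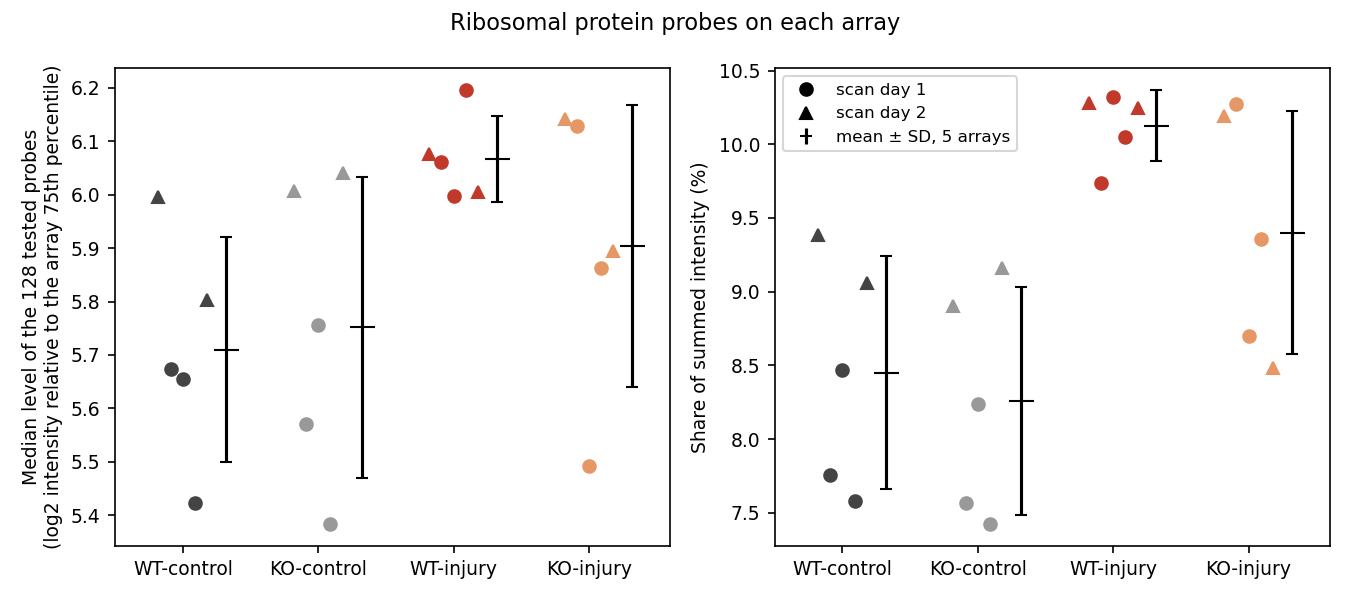
Left, the median log2 level of the 128 tested ribosomal protein probes on each array, and right, the share (%) of the summed intensity that these probes held, by group. Points are arrays, shapes mark the scan day, and bars are the mean ± SD of 5 arrays. The WT-injury arrays lie between 6.0 and 6.20 on the left and between 9.74% and 10.3% on the right, and the KO-injury arrays spread from 5.49 to 6.14 and from 8.48% to 10.3%.

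These medians also moved with the brightness of the array. Among the 10 uninjured arrays, the 5 with a 75th percentile of intensity between 817 and 908 had medians of 5.38 to 5.67, and the other 5, between 495 and 649.6, had medians of 5.76 to 6.04. The WT-injury arrays, between 576 and 881, kept medians of 6.0 to 6.20. The KO-injury arrays 1 to 5 were at 748, 789, 972, 928 and 589, with medians of 6.14, 6.13, 5.49, 5.86 and 5.89. The lowest 2 of these medians were thus on the 2 brightest arrays of that group. The part of array brightness in the differences was not tested.

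Injured wild-type tracheas were compared with uninjured ones to find how the ribosomal protein genes stood 3 days after injury, and nearly all of their probes had a slightly higher mean. Of the 128 probes, 121 (94.5%) had a higher mean in WT-injury than in WT-control, against 50% of all tested probes. The median difference was 0.33 (quartiles 0.23 and 0.45), against 0.00 over all tested probes and 0.06 over the highest level class. With the brightest probe of each gene taken, 79 of 79 genes were above 0, with a median of 0.32. The median standard error of a probe's difference was 0.18, so the median difference was below 2 standard errors of a single probe. The probes share the shifts of their arrays, so these counts are not counts of independent measurements.

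At the threshold, 5 of the 128 probes (3.91%) were called higher, against 3.24% of all tested probes, and 0 were called lower, against 2.03% (5.26% in either direction). The share called was thus near that of all probes. With an adjusted p under 0.05, chosen after the data had been seen, 19 were called higher (14.8%, against 7.74%) and 1 lower (against 4.98%). An unadjusted p under 0.05 was found for 56 higher probes (43.8%, against 14.5%) and 2 lower probes (1.56%, against 11.9%). The injured arrays lay entirely above the uninjured ones for 35 probes (27.3%, against 7.89%), of which 32 were measured on all 10 arrays, and entirely below for 1 probe (0.781%, against 4.68%).

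**Figure D2:**
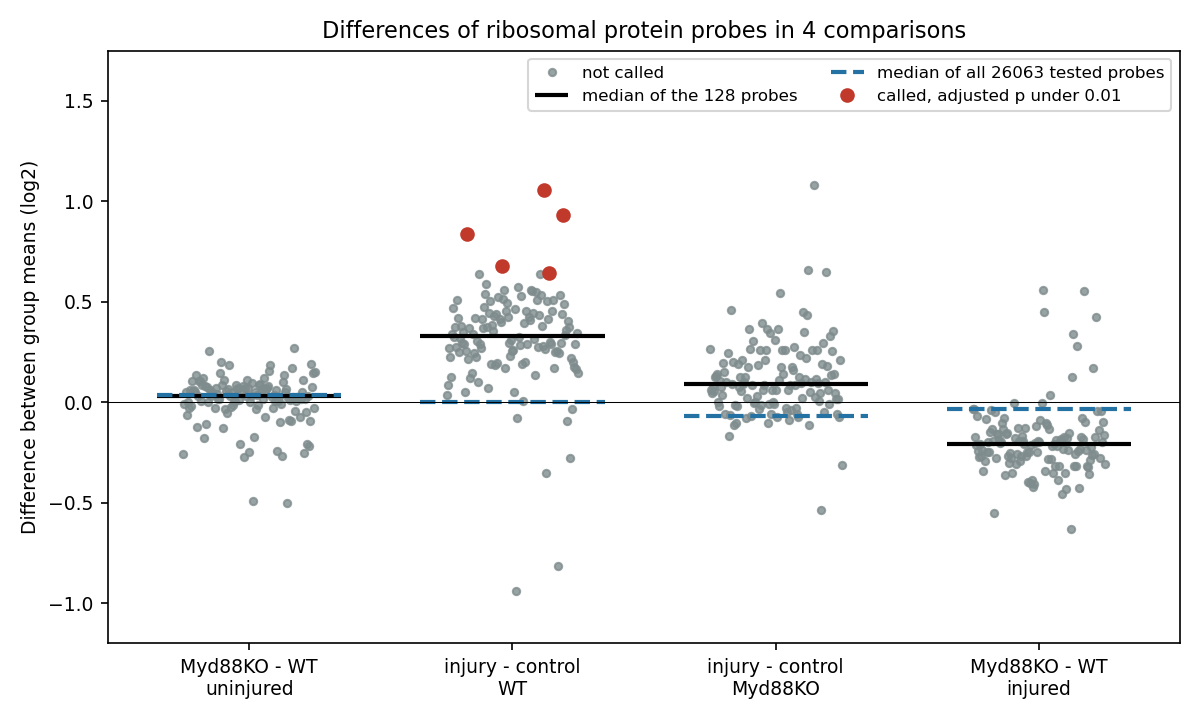
Difference between group means (log2) of each of the 128 tested ribosomal protein probes in 4 comparisons. Grey points were not called, red points had an adjusted p under 0.01, the solid line is the median of the 128 probes and the dashed line the median of all 26063 tested probes. The medians of the 128 probes are 0.03, 0.33, 0.09 and -0.21 from left to right, and the 5 called probes are all in the second comparison.

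The called probes belonged to Rpsa, Rps24, Rpl14, Rpl27a and Rpl10a. Rpsa is a protein of the small subunit that is also known as the laminin receptor. Its probe A_52_P372165 was at -1.61, -1.81, -1.50, -2.18 and -1.83 on the WT-control arrays and at -1.02, -0.49, -0.61, -0.38 and -1.15 on the WT-injury arrays. All injured arrays were higher, by 1.05 ± 0.22 on the log2 scale (SE, adjusted p = 0.00454, limma), or 2.08-fold. Rps24 is a small subunit protein whose mRNA is spliced in several ways near its 3′ end, and mutations in the human gene cause Diamond-Blackfan anaemia. Its probe A_52_P537084 was at -2.27, -2.54, -2.06, -2.66 and -2.23 without injury and at -1.51, -1.27, -1.34, -1.27 and -1.72 after it. The groups did not overlap, and the difference was 0.93 ± 0.21 (adjusted p = 0.00647, limma), or 1.91-fold.

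Rpl14, a protein of the large subunit, was measured by a single probe, A_51_P232858, which was at 1.22, 0.80, 1.40, 0.65 and 1.06 on the uninjured and at 1.88, 1.92, 1.87, 2.12 and 1.51 on the injured wild-type arrays. The injured arrays were all higher, by 0.84 ± 0.19 (adjusted p = 0.00670, limma), or 1.79-fold. Rpl10a lies on the large subunit near the site where the deacylated tRNA leaves. Its probe A_52_P407086 rose from 3.90, 3.69, 4.03, 3.57 and 3.87 to 4.44, 4.61, 4.36, 4.67 and 4.20, by 0.64 ± 0.15 (adjusted p = 0.00993, limma), or 1.56-fold. The groups did not overlap. Rpl27a is another large subunit protein, and its probe A_51_P418662 rose from -3.27, -3.19, -3.33, -3.12 and -3.10 to -2.40, -2.64, -2.57, -2.61 and -2.40. This was 0.68 ± 0.16 without overlap (adjusted p = 0.00752, limma), or 1.60-fold. The next probes in order of p were those of Rps26 at 0.64 (adjusted p = 0.0172), Rpl6 at 0.57 (adjusted p = 0.0179) and Rps9 at 0.52 (adjusted p = 0.0204), which did not pass in limma. Of the 5 called probes, 2 lay in the highest level class, 2 in the second lowest and 1 in the lowest, and these last 3 (Rpsa, Rps24 and Rpl27a) were dim.

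**Figure D3:**
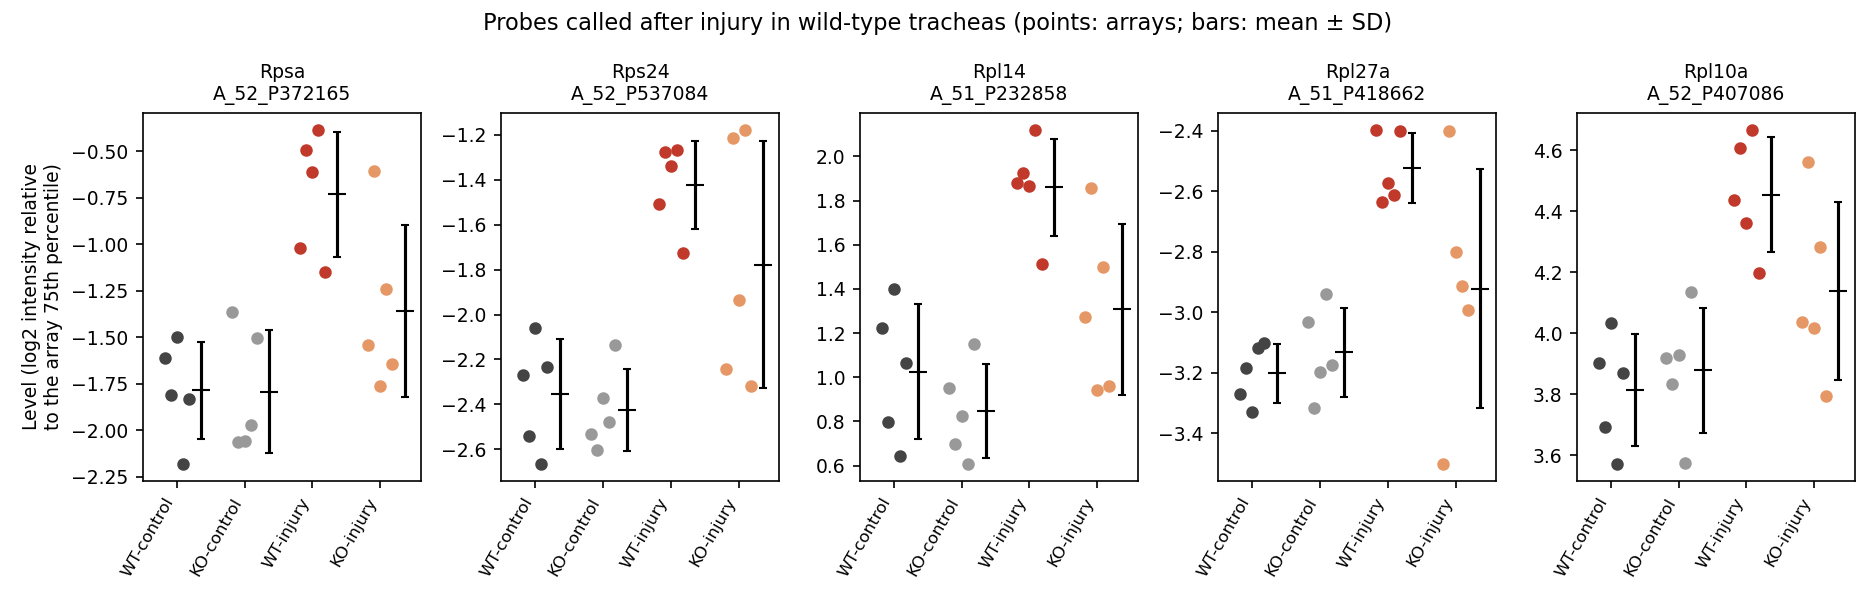
Level (log2 intensity relative to the array 75th percentile) of the 5 ribosomal protein probes called after injury in wild-type tracheas, on all 20 arrays. Points are arrays and bars are the mean ± SD of 5 arrays. In each panel the WT-injury points lie above all WT-control points, and the KO-injury points overlap those of KO-control.

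The calls depended on single arrays. Leaving out any 1 of the 10 wild-type arrays gave 0 to 4 called probes. The count was 0 without WT-control 2, 4 or 5 or WT-injury 2, 3 or 4, and 1 without WT-control 1 or WT-injury 1. It was 3 without WT-injury 5. Over the same 10 fits, 2.55% to 4.67% of all tested probes were called, against 5.26% with every array. With the slide as a block, 1 of the 5 probes was called (5.94% of all tested probes), and with the scan day as a block, 8 probes were (8.08%). The median difference was less dependent, at 0.27 to 0.39 with an array left out. Within the 5 slides it was 0.29, 0.34, 0.70, 0.19 and 0.18, against 0.02, 0.08, 0.06, -0.05 and 0.05 over all tested probes. It was thus above 0 on each slide. The median difference was 0.44 over the 3 arrays a group of the first scan day and 0.18 over the 2 of the second.

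Members named for their role gave the following differences between injured and uninjured wild-type tracheas, none of which passed the threshold unless given above. Of the stalk proteins, which recruit translation factors to the large subunit, Rplp0 differed by 0.59 ± 0.24, Rplp2 by 0.19 ± 0.19 and Rplp1 by 0.05 ± 0.20 (SE). The Rplp0 probe was at 4.31, 4.54, 4.78, 4.22 and 4.09 without injury and at 4.61, 5.40, 4.92, 5.50 and 4.44 after it, so the groups overlapped. It is also the probe that the array files place on chromosome 8, whereas the RefSeq gene lies on chromosome 5. It was the only disagreement among the 132 probes with a position in both.

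Rps6, the substrate of the S6 kinases, differed by 0.38 ± 0.17 (adjusted p = 0.169, limma), from a mean of 4.98 ± 0.25 to 5.35 ± 0.35 (SD, n = 5). Rps3, at the mRNA entry site, differed by 0.27 ± 0.18 and 0.34 ± 0.18 on its 2 probes, and Rps14 by 0.19 ± 0.20. Rps19, the gene most often mutated in Diamond-Blackfan anaemia, differed by 0.51 ± 0.23 and 0.48 ± 0.21. Rps27a, which is made as a fusion with ubiquitin, differed by 0.13 ± 0.21, and Rps4x, an X-linked small subunit gene, by 0.12 ± 0.19 and 0.14 ± 0.30.

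Among the large subunit proteins, Rpl3, close to the peptidyl transferase centre, differed by 0.46 ± 0.25, without overlap, but was measured on only 3 uninjured and 4 injured arrays. Rpl4, which lines the exit tunnel, differed by 0.26 ± 0.27. Rpl5 and Rpl11 bind the 5S ribosomal RNA and, when free, the p53 regulator Mdm2. Rpl5 differed by 0.32 ± 0.13 without overlap, and the 2 Rpl11 probes by 0.20 ± 0.18 and -0.09 ± 0.27. Rpl13a and Rpl38 differed by 0.22 ± 0.18 and 0.25 ± 0.23. The paralogs Rpl22l1 and Rpl7l1 differed by 0.29 ± 0.25 on 1 probe and by 0.09 ± 0.14 and 0.38 ± 0.16 on 2. The 5 probes of highest signal in WT-control were those of Rplp1, Rpl37a, Rps18, Rpl7a and Rplp2, and their differences of 0.05 to 0.29 were below the median of 0.33.

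Large and small subunit genes did not stand apart. The 73 Rpl probes had a median difference of 0.33, with 69 above 0 and 3 called, and the 55 Rps probes 0.34, with 52 above 0 and 2 called. Probes that the array files place over a stretch longer than the probe, as across an intron, gave 0.36 (41 probes) and the other placed probes 0.33 (85 probes).

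Probes of the same gene did not always move together. Of 39 genes with several tested probes, 32 had every probe above 0. The 4 Rpl29 probes differed by 0.52 to 0.56, and the 2 Rps19 probes by 0.48 and 0.51. Called probes had partners that were not called, since the second Rpsa probe, A_51_P439092, differed by 0.56 ± 0.20 (adjusted p = 0.0816) and the second Rpl27a probe, A_51_P132459, by 0.34 ± 0.14 (adjusted p = 0.127, limma).

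Rps24 differed most among its probes. The bright probe A_51_P312936 differed by 0.29 ± 0.20, the called probe by 0.93, and the third, A_52_P100002, by -0.94 ± 0.41 (adjusted p = 0.152, limma). On the third probe the WT-control arrays were at 0.63, 0.38, -0.52, 0.47 and 0.45 and the WT-injury arrays at 0.17, -2.13, -0.08, -1.41 and 0.17. The groups overlapped, and the low mean came from the WT-injury arrays 2 and 4. The dim Rps13 probe A_52_P646112 was also lowest on these arrays among the injured wild-type arrays, at -3.04 and -2.21, and differed by -0.28 ± 0.38, whereas the bright Rps13 probe differed by 0.41 ± 0.19. In the array files the 3 Rps24 probes lie on chromosome 14, the called one at 22164510 to 22164569 and the third at 22163190 to 22163249, in a genome build that the files do not state. Which transcripts of Rps24 each probe reads was not tested.

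Rps15a had a bright probe at 0.38 ± 0.21 and a dim one, A_52_P491433, at -0.82 ± 0.23 (adjusted p = 0.0245, limma). The dim probe fell short of the threshold, but its injured wild-type arrays, at -5.62, -4.97, -4.48, -5.05 and -4.49, were all below the uninjured ones, at -3.88, -4.16, -4.11, -4.25 and -4.12. It was well above background on all 5 arrays of each uninjured group, on 2 of the 5 WT-injury arrays and on 4 of the 5 KO-injury arrays, so its differences from WT-injury are against a group mostly not above background. The Rpl22 probes differed by 0.44 ± 0.21 and -0.35 ± 0.20. Ribosomal protein genes have many processed pseudogenes with nearly the same sequence, and how much of a probe's signal came from such copies was not tested.

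**Figure D4:**
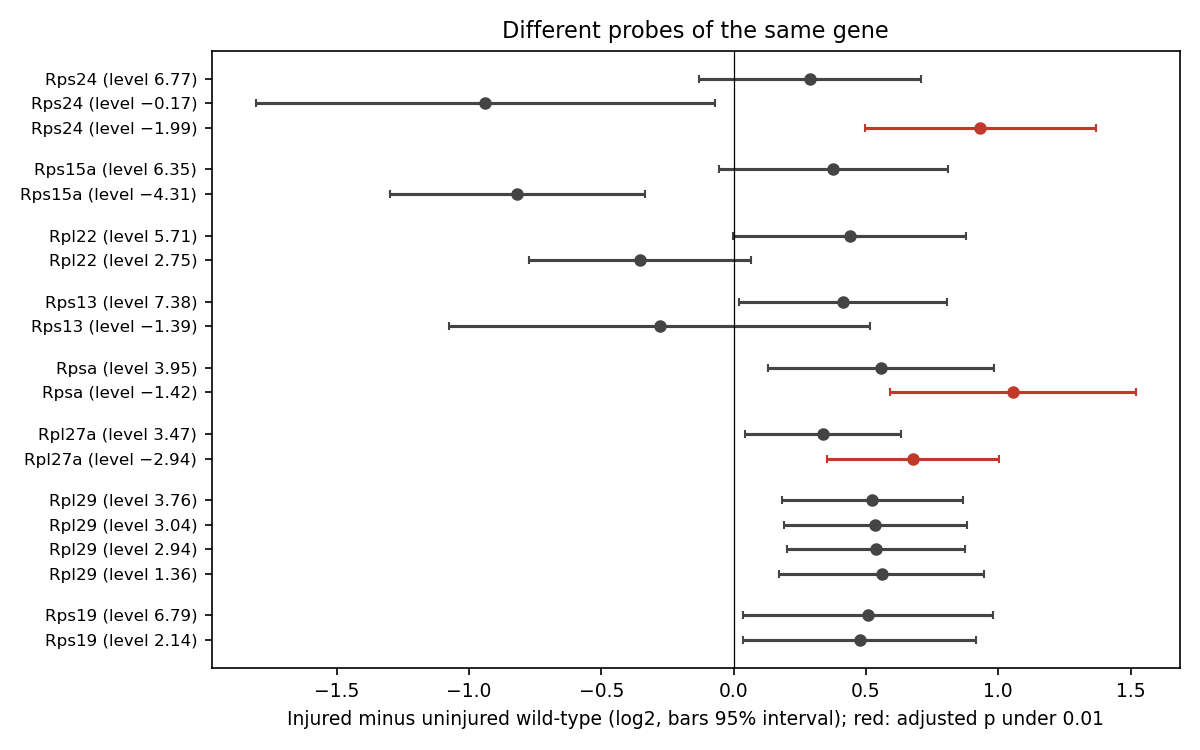
Difference between injured and uninjured wild-type tracheas (log2, horizontal axis) for each tested probe of 8 ribosomal protein genes, with the mean level of the probe in brackets. Points are fitted differences, bars their 95% intervals, and red marks an adjusted p under 0.01. The Rps24 probes range from -0.94 to 0.93, and the 4 Rpl29 probes from 0.52 to 0.56.

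In injured Myd88KO tracheas 0 of the 128 probes were called, against 0.376% of all tested probes. The median difference was 0.09, against -0.07 over all tested probes, with 0.09 to 0.25 under the alternatives and 0.01 to 0.17 with an array left out. Of the probes, 96 of 128 probes (75%) were above 0, against 42.3%. An unadjusted p under 0.05 was found for 10 higher probes (7.81%, against 7.32%) and 1 lower probe (0.781%, against 12.2%), and the smallest adjusted p was 0.0928. No probe had groups without overlap, against 1.15% of all tested probes entirely above and 2.30% entirely below. The largest differences were those of dim Rps12 (1.08 ± 0.35), Rpl4 (0.66 ± 0.27), the Rps24 probe called in wild-type (0.65 ± 0.21), a dim Rpl13 probe (0.54 ± 0.19) and Rpl14 (0.46 ± 0.19). The lowest differences were those of dim Rps15a (-0.54 ± 0.23), both Rps4x probes (-0.31 ± 0.30 and -0.12 ± 0.19), Rplp1 (-0.17 ± 0.20) and the second Rpl22 probe (-0.11 ± 0.20).

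The injured Myd88KO arrays disagreed among themselves. The Rps24 probe A_52_P537084 was at -2.24, -1.21, -1.94, -1.18 and -2.32 on them, against -2.53, -2.60, -2.37, -2.48 and -2.14 on the uninjured ones. The Rpsa probe A_52_P372165 was at -1.54, -0.61, -1.76, -1.24 and -1.65 after injury and at -1.37, -2.06, -2.06, -1.97 and -1.50 before it. Rpl14 was at 1.27, 1.86, 0.94, 1.5 and 0.96 after injury and at 0.95, 0.70, 0.83, 0.61 and 1.15 before it. On all 3 probes the KO-injury arrays 2 and 4 were above every KO-control array and KO-injury 5 was above them on none. The median over all tested probes within slides was -0.03, -0.06, -0.07, -0.08 and -0.12 for slides 1 to 5. The median over the ribosomal protein probes was 0.48, -0.21, 0.33, -0.18 and 0.10. By scan day it was 0.20 on the first and -0.05 on the second. Without KO-injury 5 the number called was again 0, while 4.12% of all tested probes were then called, the smallest adjusted p was 0.0194 and the median was 0.08. An unadjusted p under 0.05 was then found for 17 higher probes (13.3%, against 10.3% of all tested probes) and 1 lower probe (against 17.3%), and 88 were above 0.

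Between the genotypes without injury, 0 of 128 probes were called, against 0.384% of all tested probes, and 0 had an unadjusted p under 0.05 in limma, against 3.82% higher and 1.77% lower. The median difference, Myd88KO minus wild-type, was 0.03, against 0.04 over all tested probes. It was -0.02 to 0.06 under the alternatives and -0.06 to 0.13 with an array left out, so its sign was not settled. Of the 128 probes 88 were above 0 (68.8%), against 56.7% of all tested probes and 67.9% of the highest level class. The lowest differences were those of dim Rps12 (-0.50 ± 0.35), the third Rps24 probe (-0.49 ± 0.41), Rpl31 (-0.27 ± 0.16), Rpl4 (-0.27 ± 0.27) and Rpl23 (-0.26 ± 0.18). The highest were those of dim Rps15a (0.27 ± 0.23), a Rps18 probe (0.26 ± 0.19), Rps19 (0.20 ± 0.21), Rps21 (0.19 ± 0.34) and Rpl36 (0.19 ± 0.20). The smallest adjusted p was 0.923. Within slides the median was -0.06, 0.04, -0.06, 0.25 and -0.03, against 0.04, 0.09, 0.02, 0.06 and 0.00 over all tested probes. Rpsa and Rpl14 lie 0.808 and 1.26 Mb from the Myd88 probe on chromosome 9 by the positions in the array files. Their probes differed by -0.01 ± 0.22 and -0.21 ± 0.20 (Rpsa) and by -0.18 ± 0.19 (Rpl14).

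Between the genotypes after injury, 119 of 128 probes were lower in Myd88KO, against 54.7% of all tested probes, with a median of -0.21, against -0.03. The highest level class had a median of -0.07, with 39.0% of its probes above 0, against 7.03% of the 128 probes. However, 0 probes were called, against 0.380% of all tested probes, and the smallest adjusted p was 0.220. An unadjusted p under 0.05 was found for 13 lower probes (10.2%, against 8.09%) and 2 higher ones (1.56%, against 4.43%). The lowest were the Rpsa probe A_52_P372165 (-0.63 ± 0.22), Rpl14 (-0.55 ± 0.19), Rps2 (-0.45 ± 0.19), Rpl31 (-0.43 ± 0.18) and Rps25 (-0.43 ± 0.15). Rpsa and Rpl14 are the genes that lie 0.808 and 1.26 Mb from the Myd88 probe. The second Rpsa probe differed by -0.40 ± 0.19. The part of this position in their differences was not tested. The highest were the third Rps24 probe (0.56 ± 0.41), dim Rps15a (0.55 ± 0.23), dim Rpl13 (0.45 ± 0.19), dim Rps13 (0.42 ± 0.38) and the second Rpl22 probe (0.34 ± 0.20). Rpl41, measured on 5 WT-injury and 4 KO-injury arrays (not on KO-injury 5), was the only probe whose groups did not overlap (1 lower, against 1.26% of all tested probes, and 0 higher, against 0.694%), at -0.35 ± 0.18 (adjusted p = 0.444, limma), and was named after its value was seen. Within slides the median was 0.10, -0.49, -0.43, -0.15 and -0.13, against 0.02, -0.03, -0.08, 0.03 and -0.14 over all tested probes. Without KO-injury 5 the median over the 128 probes was -0.22. Without that array 0 probes were called (0.326% of all tested probes), 115 were lower, and 9 lower and 2 higher probes had an unadjusted p under 0.05 (6.82% and 3.46% of all tested probes).

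The difference between the injury responses was tested in the same fit, and 0 of 128 probes were called, as were 0 of all tested probes. In limma 1 higher and 1 lower probe had an unadjusted p under 0.05, against 3.41% and 6.96% of all tested probes, 117 were below 0, against 58.7%, the smallest adjusted p was 0.459, and the median was -0.23, against -0.09 over all tested probes and -0.16 over the highest level class. This median was -0.26 to -0.06 under the alternatives and -0.33 to -0.15 with an array left out. Without KO-injury 5 it was -0.26, and 0 probes were called. With all arrays 8.59% of the 128 probes were above 0, against 30.7% of the highest level class. The lowest values were those of the Rpsa probe A_52_P372165 (-0.62 ± 0.31), Rpl24 (-0.48 ± 0.25), Rps28 (-0.47 ± 0.28), the called Rpl27a probe (-0.47 ± 0.22) and Rpl6 (-0.47 ± 0.23). Among these, Rpsa is the gene that lies 0.808 Mb from the Myd88 probe. The highest were those of the third Rps24 probe (1.05 ± 0.59), dim Rps12 (0.79 ± 0.50), dim Rps13 (0.63 ± 0.54), dim Rpl13 (0.62 ± 0.27) and the second Rpl11 probe (0.42 ± 0.38). The response in Myd88KO was therefore not shown to differ from that in wild-type for any ribosomal protein probe. Comparisons that have a group in common share its arrays. The WT-injury arrays thus enter both the wild-type injury difference and the genotype difference after injury, and the values of one are not independent of the other.

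The other genes of ribosome production were taken 1 probe a gene, the brightest. Fau and Gnb2l1 (Rack1), ribosomal proteins with other symbols, differed by 0.35 ± 0.19 and 0.30 ± 0.18 after injury in wild-type and by -0.12 and 0.03 in Myd88KO. Neither was called. Of the genes that make and process ribosomal RNA and assemble the subunits, 42 of 51 were tested. In wild-type 36 were above 0, with a median of 0.35, and 17 had an unadjusted p under 0.05 and a higher mean, against 14.5% of all tested probes. Only Noc2l was called, against 3.24% of all tested probes, a gene of large subunit maturation (0.73 ± 0.14, adjusted p = 0.00272, limma). Noc2l was at 2.28, 2.15, 2.50, 2.27 and 2.30 without injury and at 2.99, 3.16, 2.94, 3.25 and 2.80 after it, without overlap. In Myd88KO 36 of the 42 genes were above 0, with a median of 0.28, 18 had an unadjusted p under 0.05 and a higher mean, against 7.32% of all tested probes, and 0 were called. Without KO-injury 5 these 42 genes had a median of 0.33, 24 had such a p, and Ncl was called (1.05 ± 0.23, adjusted p = 0.00727, limma). With all arrays, the nucleolar proteins Npm1 and Ncl differed by 0.72 ± 0.18 and 0.91 ± 0.23 in Myd88KO (adjusted p = 0.0340 and 0.0349, limma) and by 0.51 ± 0.18 and 0.45 ± 0.23 in wild-type, and were chosen after their values were seen.

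Set beside them, the 79 ribosomal protein genes had medians of 0.32 in wild-type and 0.08 in Myd88KO, with 79 and 59 genes above 0. Of 36 translation factors 23 were tested, with medians of 0.23 in wild-type and 0.20 in Myd88KO (0.18 without KO-injury 5). The poly(A)-binding protein Pabpc1, whose mRNA also starts with a pyrimidine run, was the only one called, in wild-type, at 0.61 ± 0.14 (adjusted p = 0.00890, limma), against 0.31 ± 0.14 in Myd88KO (adjusted p = 0.245, limma). The regulators of ribosome production, among them Myc, mTOR and its partners and p53, had medians of 0.08 and -0.03 over 18 tested genes of 19, and none was called. The 75 mitochondrial ribosomal protein genes, whose products build the ribosome of another compartment, had medians of 0.05 and -0.11, with 48 and 20 genes above 0 and none called. Whether a list differed from another was not tested.

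**Figure D5:**
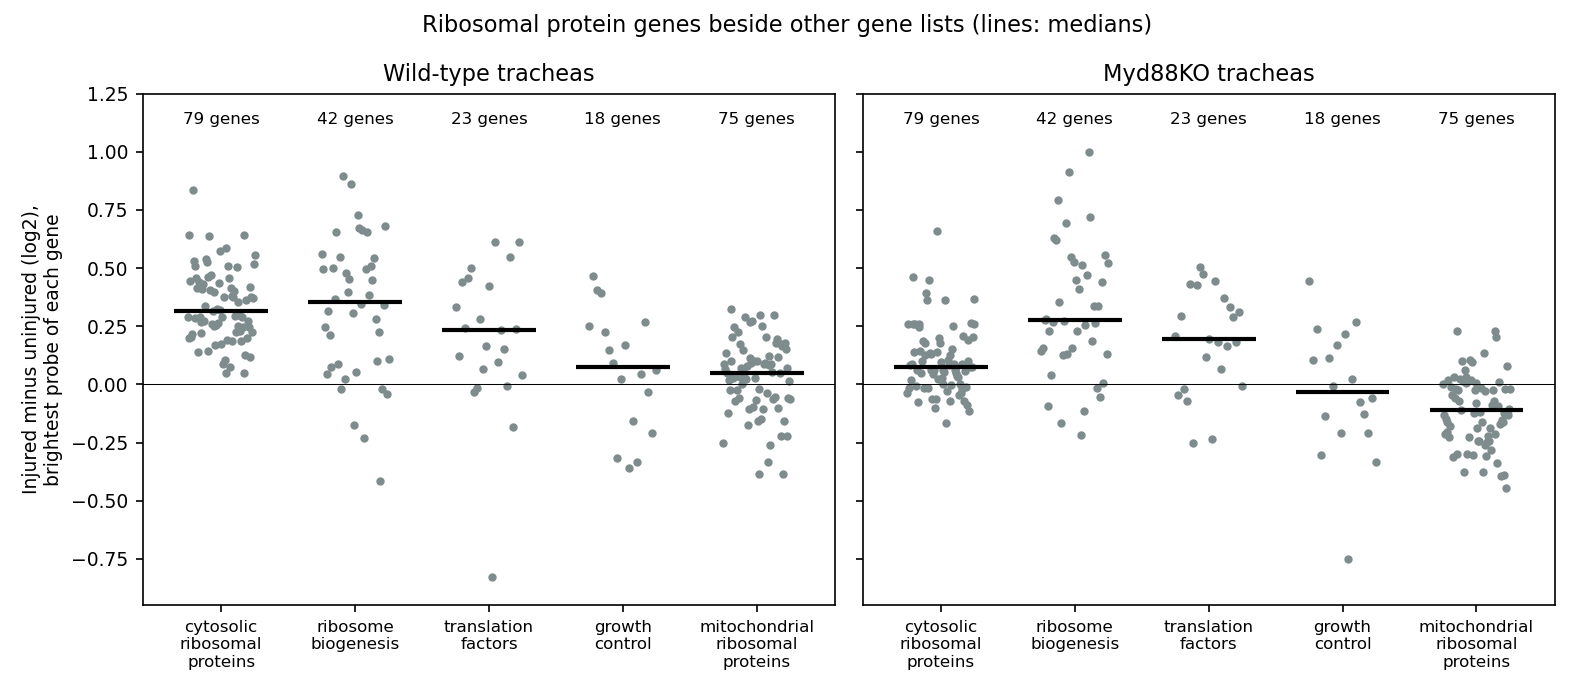
Difference between injured and uninjured tracheas (log2) of the brightest probe of each gene, in wild-type (left) and Myd88KO (right). Points are genes, lines are medians, and the number of genes stands above each list. The medians of the cytosolic ribosomal protein genes are 0.32 and 0.08, and those of the ribosome biogenesis genes 0.35 and 0.28.

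Whole tracheas hold many cell types, and more cells of a type and more RNA per cell cannot be told apart in them. Several marker lists moved with injury. Of 10 proliferation markers 10 were tested, and all 10 were above 0 with an unadjusted p under 0.05 in both genotypes, with medians of 2.43 in wild-type and 2.11 in Myd88KO. In wild-type 6 were called higher, against 3.24% of all tested probes. In Myd88KO 0 were called with all arrays, against 0.376% of all tested probes in either direction, and 8 without KO-injury 5, against 4.12%. The summed level of the 10 markers (log2) was 3.7 to 5.10 in WT-control and 5.76 to 6.46 in WT-injury, without overlap, and 3.41 to 4.07 in KO-control and 3.73 to 6.25 in KO-injury. Of 12 neutrophil and macrophage markers, 11 were above 0 in each genotype, with medians of 2.54 and 1.31. Of these markers 5 were called higher in wild-type, against 3.24% of all tested probes, and 0 in Myd88KO, against 0.376%. Without KO-injury 5, Csf3r and Itgam were called in Myd88KO, against 4.12%. The summed level of the 12 markers was 8.25 to 9.07 before and 8.47 to 9.39 after injury in wild-type, and 8.11 to 8.90 before and 8.13 to 8.83 after it in Myd88KO.

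Of 8 club and secretory markers, 4 were called lower in wild-type, against 2.03% of all tested probes, and 2 in Myd88KO. The summed level of the 8 markers went from 10.9 to 11.7 down to 9.95 to 10.3 in wild-type and from 11 to 11.5 down to 9.89 to 10.9 in Myd88KO. Of 8 ciliated markers 6 were tested, and 1 was called lower in wild-type. Of these 6, 0 were above 0 in either genotype, with medians of -2.03 in wild-type and -0.89 in Myd88KO. In either direction 5.26% of all tested probes were called in wild-type and 0.376% in Myd88KO. None of the 7 basal, 10 skeletal muscle, 9 tested adipocyte, 8 cartilage, 7 smooth muscle, 7 tested lymphocyte and 3 tested thyroid markers was called in either injury comparison. Several of these lists nevertheless had members on one side of 0. In Myd88KO the adipocyte markers had a median of -0.78, with 0 of 9 above 0 and 6 at an unadjusted p under 0.05, and the thyroid markers -1.38, with 0 of 3 above 0 and 2 at that p. Skeletal muscle markers were below 0 for 10 of 10 in both genotypes, with medians of -0.40 and -0.51. Between the uninjured genotypes, Myd88KO minus wild-type, the adipocyte markers had a median of 0.74, with 8 of 9 above 0. Smooth muscle markers were above 0 for 7 of 7, with summed levels of 8.02 to 8.20 in WT-control and 8.35 to 8.57 in KO-control. Of 10 proliferation markers 0 were above 0, with a median of -0.49. None of these was called.

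Between the injured genotypes, 0 of 12 neutrophil and macrophage markers and 0 of 10 proliferation markers were above 0, with medians of -1.35 and -0.61, and 9 and 2 of them had an unadjusted p under 0.05. Without KO-injury 5 the medians were -0.85 and -0.19, and 4 of the 10 proliferation markers were above 0. Ciliated markers went the other way, with 6 of 6 tested above 0 and a median of 0.94 (0.61 without KO-injury 5). Of 8 club and secretory markers 5 were above 0 (median 0.20), and of 8 cartilage markers 1 was (median -0.30). The part of these cell types in the ribosomal protein differences was not tested.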

How the data were processed

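RNA of mouse whole trachea was hybridised to 20 Agilent arrays of 1 colour. The authors deposited Agilent Feature Extraction 9.5.1.1 scanner files, whose processed intensity is background-corrected and not scaled between arrays. The deposited value table holds the same intensity, rounded, and was used only in an alternative fit. Control spots and outlier spots were left out, spots of 1 probe were averaged, and each array's log2 intensities had the 75th percentile subtracted. Probes well above background on at least 10 of 20 arrays were tested with limma 3.58.1 in R 4.3.3, in 1 fit of all 4 groups, with Benjamini-Hochberg adjustment and a threshold of 0.01. The fit was tested on simulated data. Groups and replicate numbers came from the sample titles. Whether each array held 1 animal or a pool was not settled by the labels, so p-values measure the spread between arrays.

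The study used mice of both sexes, and the sex of a sample was not used here. The members, the lists of other genes and the markers were chosen with earlier results of these data known. Named probes were those called, the 5 highest and 5 lowest differences in each comparison, the 5 of highest signal, members fixed by role, genes with probes that differ in their calls, and the called genes of each list (at most 3 a direction). Without injury the same-numbered arrays of the genotypes, which lay on 1 slide, deviated together (r = 0.25 to 0.48 over probes). Other same-numbered pairs did so less evenly, at -0.03 to 0.39 for injury in wild-type and 0.00 to 0.46 in Myd88KO. Between injured genotypes r was -0.22 to 0.33. The part of the slide in this was not tested. Between uninjured genotypes the slide as a block gave 0 calls too. Other alternatives were quantile normalization, normexp background correction (offset 50), no filter, the slide or scan day as a block, array weights, only the groups compared, the methods' 1-way test, and leaving out each array. Values of the gene and marker lists without KO-injury 5 were added after seeing the data. Gene symbols are those of the array files. Of the 134 probes, 112 matched RefSeq by accession and 22 by symbol, and 2 accessions lead to another symbol. The genome build of the probe positions was not given in the sources used here. An item of a gene list is not reported here.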

Additional observations from a re-analysis of the deposited data

Results flagged for a closer look

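Over the 51 named ribosomal protein probes and the summaries per array, 201 groups of 5 arrays were examined for an array that stood apart from the others, and 6 had one, where chance gives about 1 in 20. The Rpl13 probe A_52_P103513 was at -2.0 on WT-injury 3, above the next array at -2.72. The Rpl7l1 probe A_52_P343343 was at -1.39 on WT-control 5, below the next array at -1.0, and the Rps24 probe A_52_P100002 was at -0.52 on WT-control 3, below the next at 0.38. The Rps14 probe was at 8.11 on WT-injury 3, below the next at 8.25. The Rps19 probe A_51_P337290 was at 2.53 on WT-injury 4, above the next at 2.38. The Rps3 probe A_52_P768 was at 2.91 on KO-control 4, below the next at 3.22. None of these is a probe called in the report.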

How the results depend on the processing

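The number of ribosomal protein probes called after injury in wild-type, 5 in the report, was 8 with quantile normalization (4 of them the same probes), 8 with scan day blocked and 11 with array weights, while 5.52%, 8.08% and 9.97% of all tested probes were called, against 5.26%. It was 2 with normexp background correction, 1 without the filter on dim probes, 3 with only the 2 groups compared, 3 with the methods' 1-way test and 1 with the replicate block, which is the slide (4.27%, 2.69%, 6.06%, 4.02% and 5.94% of all tested probes). It was 4 with arrays centred on their median, a 75th percentile without these probes, the value table or the trend of the spread (5.41%, 5.23%, 5.26% and 5.52%). A filter on all 20 arrays left it at 5 (4.97%). At an adjusted p under 0.05, added after seeing the data, it was 20, and leaving out 1 array gave 0 to 4. Of the 5 probes, Rpsa was called in 12 of 13 alternatives, Rps24 in 10, Rpl14 and Rpl27a in 9 each and Rpl10a in 4 (arrays left out not counted). Injury in Myd88KO gave 1 call with array weights and 0 otherwise, and the other comparisons gave 0 throughout. The share of all tested probes called in that Myd88KO fit is not given here, so its 1 call is not read as a result. In wild-type the array weights raised this share to 9.97%. The replicate block changed no other count. The median difference over the probes ranged from 0.29 to 0.40 in wild-type (0.27 to 0.39 with an array left out) and from -0.21 to -0.07 between injured genotypes (-0.26 to -0.13). The cause of these changes was not tested. With 5 arrays a group, the median standard error of 0.18 limits what a single probe can show, and probes near background measure least.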
